A study of Homo sapiens with 9 samples.

Results

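The tripartite motif (TRIM) family is a large group of ubiquitin ligases, most of which carry a RING domain, B-box zinc fingers and a coiled coil, followed by a C-terminal part that differs between members. The RING domain recruits an E2 enzyme charged with ubiquitin, and the C-terminal part, often a PRY-SPRY domain, tends to select the target. Several members are induced by interferon and act in antiviral defense, either on viral proteins or on the sensors and adaptors that signal to the interferon genes. Others work in chromatin, the cytoskeleton or autophagy. The members described here were the protein-coding genes whose symbol is TRIM followed by a number, which gave 66 of the 58735 genes in the count matrix.

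The libraries came from A549, a human lung adenocarcinoma line, transfected with a plasmid using the reagent jetPRIME. All groups, controls included, were transfected. The 3 PC3 libraries carried a control plasmid that the labels call PC3.1, PC3.2 and PC3.3, a plasmid name that has nothing to do with the prostate line. The 3 L996 libraries carried a plasmid that overexpresses the long non-coding RNA LINC00996, and the 3 RP11 libraries carried one that overexpresses the long non-coding RNA AP001189.3. The comparisons ask which genes respond to each RNA. A single line was used, the promoter of the plasmids is not given in the sources used here, and the study's methods speak of replicates but not of separate cultures, so the p-values below measure only the spread between these libraries. In RNA from a pool of cells, a change in fewer cells and a smaller change in every cell cannot be told apart.

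Each library held 15272450 to 18125447 counts. LINC00996 stood at 295 ± 23.5 CPM (SD, n = 3) in L996 and at 0.419 ± 0.164 in PC3. The CPM are counts scaled to the library total times a scaling factor for each library (TMM). AP001189.3 had 1660 to 2378 counts in the RP11 libraries and 0 to 2 in the controls. All 8 markers of A549 examined were present, while 5 of 13 markers of leukocytes, endothelium and fibroblasts never passed 3 counts. These 13 summed to 44.8 to 49.5 CPM in PC3, 33.8 to 37.6 in L996 and 37.6 to 45.0 in RP11, and the A549 markers to 11632 to 11702, 15993 to 17621 and 12674 to 13272. CDH1, the epithelial cadherin among them, went the other way, at 318 ± 5.44 CPM in PC3 and 171 ± 10.1 in L996. Marker levels thus differed between L996 and PC3, and their part in the results below was not tested. L996 library 1 stood apart from its replicates, with a chi-square of 22.4 and 33.3 per gene against the other L996 libraries, where all other pairs of replicates gave 2.27 to 7.32. Counts of members that rest on it are therefore given with and without it.

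Of the 66 members, 10 had no count in any of the 9 libraries, which allows up to 3 counts per library, and 3 more never passed 3 counts. The other 53 were above that floor, 47 passed the filter on low counts in at least 1 comparison, and 45 passed it in all 3. Of the muscle members, TRIM63 stayed at or below the floor, while TRIM54 and TRIM55 reached at most 10 and 11 counts in a library. The interferon-inducible list, taken from general knowledge, held TRIM5, TRIM14, TRIM21, TRIM22, TRIM25, TRIM26, TRIM34, TRIM38, TRIM56 and TRIM69. TRIM34 had at most 15 counts in a library and was not tested. Of its exon bases, 83.0% are shared with the read-through gene TRIM6-TRIM34, to which no library gave a count. How reads in shared exon bases were assigned is not stated, so these counts do not settle the level of either gene.

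Interferon reaches its target genes through the ISRE, a promoter element bound by proteins of the IRF family. Its core was searched for as GAAANNGAA on both strands, in a window of 250 bases before and 50 bases after each RefSeq transcription start (build GRCh38.p14). The core was present for 5 of the 9 interferon-inducible members with a promoter available, for 3 of 31 other members above the floor, and for 8.41% of 27305 genes of all kinds. TRIM22 had no promoter available and was not searched. These 9 thus hold TRIM34 and lack TRIM22, whereas the 9 members tested for expression hold TRIM22 and lack TRIM34. The windows of those 5 members are shown because they are the members grouped here as interferon-inducible for which the core was found, read 5′ to 3′ along the gene, with the core in capitals. The core lies on the opposite strand in each, so that the capitals are its reverse complement.
TRIM5, chr11:5685082-5685110, minus strand: tagtttatctTTCACTTTCctgccctgag
TRIM14, chr9:98119229-98119257, minus strand: cggccgaggtTTCGGTTTCccttgggagc
TRIM26, chr6:30213578-30213606, minus strand: gcctgatTTCAGTTTCCATTTCgctgccc
TRIM34, chr11:5624902-5624930, plus strand: ccccaaaaatTTCACTTTCatttctcagg
TRIM69, chr15:44736457-44736485, plus strand: taatgagggtTTCTCTTTCtcttaagcaa

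TRIM26 held 2 overlapping matches, which together make the capitals of its line. The first capital lay 26 bases before the start in TRIM5, 25 in TRIM14, 193 in TRIM26, 89 in TRIM34 and 61 in TRIM69. No match was found in the window of TRIM21, TRIM25, TRIM38, TRIM56 or TRIM31, which says only that these letters are not in this window. Outside the list the core was found for TRIM2, TRIM16 and TRIM44. A second element, the gamma-activated site TTCNNNGAA, reads alike on both strands. It was present for 0 of the same 9 interferon-inducible members, for 7 of the same 31 other members and for 8.09% of all genes. A kappa B element, GGGANTTTC, was found in the window of none of the 52 members with a promoter and of 1.37% of all genes. These matches are descriptions of sequence.

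Levels of different genes were compared per gene length, as the deposited FPKM (fragments per kilobase, scaled to depth). TRIM28, the corepressor of KRAB zinc-finger proteins, had the highest FPKM of the family in the control libraries, 103 ± 4.92 (SD, n = 3). It was followed by TRIM21, an intracellular antibody receptor, at 49.6 ± 0.287, by TRIM25, a ligase for the RNA sensor RIG-I, at 44.1 ± 2.16, and by TRIM14, an adaptor without a RING domain, at 38.7 ± 1.03. TRIM22, an antiviral member, came next at 37.5 ± 0.717, an SD range that touches that of TRIM14. TRIM31 was the sixth of the family, at 21.9 ± 1.42, which was not separated from the seventh by its spread. In L996, TRIM31 stood at 4.90 ± 0.246 FPKM, and in RP11 at 18.0 ± 1.78. The median FPKM of the interferon-inducible members was 16.7 in PC3, 13.6 in L996 and 21.2 in RP11, and that of the other members without TRIM31 was 1.25, 1.16 and 1.28. In PC3, 40 members reached an FPKM of 1 and 16 reached 10.

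**Figure D1:**
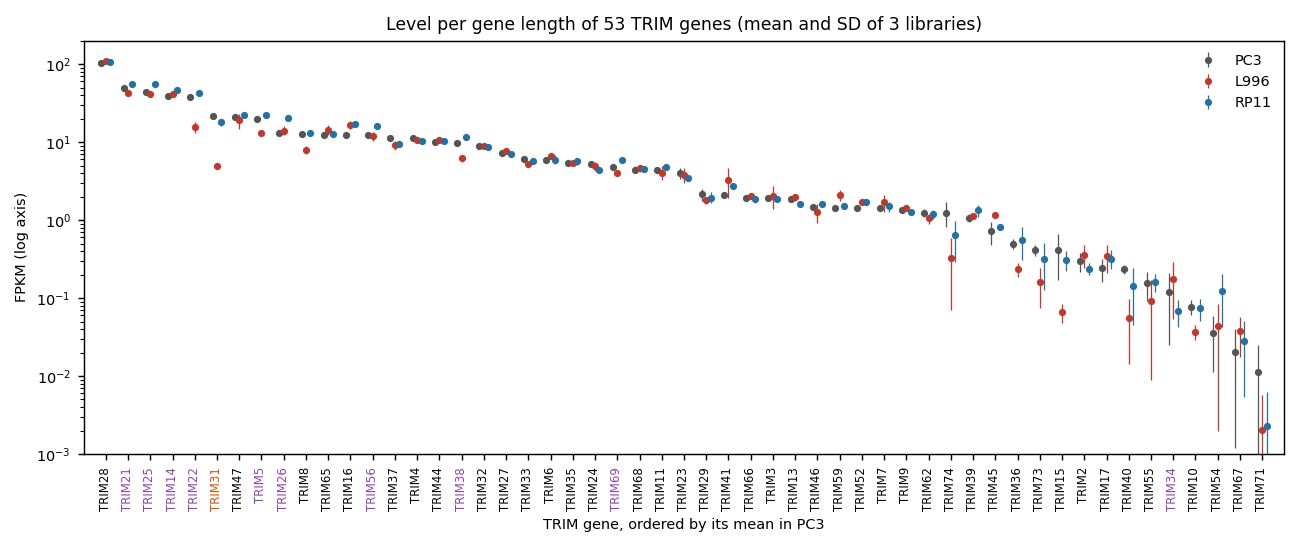
Mean FPKM with SD (n = 3 libraries, log axis) of the 53 TRIM genes above 3 counts in PC3, L996 and RP11, ordered by the mean in PC3, with interferon-inducible members in purple and TRIM31 in orange. Bars whose SD reaches 0 run to the bottom of the axis. TRIM28 is highest at 103 in PC3, and TRIM31 is the sixth gene, where its L996 mean of 4.90 lies below the PC3 mean of 21.9.

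Summed over the family, the CPM of the interferon-inducible members was 1358 to 1407 in the PC3 libraries, 1117 to 1192 in L996 and 1654 to 1735 in RP11. These ranges did not overlap. The other members without TRIM31 summed to 1465 to 1510, 1417 to 1595 and 1507 to 1538 CPM, ranges that overlapped. The interferon-inducible members accordingly made up 46.1% to 47.7% of the family's CPM in PC3, 42.5% to 45.0% in L996 and 51.0% to 52.0% in RP11.

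Overexpression of LINC00996 was compared with the control plasmid first. TRIM31, a ligase that has been tied to MAVS and the NLRP3 inflammasome, was lower by 4.47-fold in L996, the largest change among the members tested. TRIM22 was lower by 2.40-fold, and TRIM5, TRIM8 and TRIM38 by 1.53-fold to 1.60-fold. Of 45 members tested, 10 passed an adjusted p of 0.05, 8 lower and 2 higher, which is 22.2% of them. The 8 include TRIM73 and TRIM74, which reached the filter only through the PC3 libraries. Of all 16097 genes tested, 22.3% passed, 11.6% lower and 10.7% higher, so that the family as a whole changed about as often as any gene.

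TRIM31 (ENSG00000204616, chromosome 6, 30102897 to 30113106, minus strand) had 83.8, 74.3 and 76.5 CPM in the PC3 libraries, 18.3, 16.5 and 17.7 in L996, and 71.7, 61.0 and 60.0 in RP11. All L996 libraries lay far below all others, and the RP11 libraries lay below the PC3 libraries without overlap. The log2 fold change in L996 was -2.16 (standard error, SE, 0.11, 95% interval -2.39 to -1.93, adjusted p = 4.20e-07 by the quasi-likelihood test of edgeR). Across all alternatives it stayed between -2.20 and -2.11. The gene's antisense partner TRIM31-AS1, which covers 4.92% of its exon bases, had at most 12 counts in a library.

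TRIM22 (ENSG00000132274, chromosome 11, 5689689 to 5737089, plus strand), which restricts several RNA viruses and retroviruses, had 228, 231 and 223 CPM in PC3, 81.1, 92.4 and 111 in L996, and 247, 269 and 253 in RP11. The 3 groups did not overlap. Its log2 fold change in L996 was -1.26 (SE 0.11, adjusted p = 1.74e-05, edgeR), and leaving out any library kept it between -1.39 and -1.16. TRIM5, whose product binds retroviral capsids, lies beside it on chromosome 11 and had 96.1, 94.9 and 101 CPM in PC3, 59.7, 63.6 and 67.9 in L996, and 104, 109 and 106 in RP11. Its L996 libraries lay below all others, and its log2 fold change there was -0.61 (SE 0.09, adjusted p = 8.48e-04, edgeR). TRIM38, which restrains innate signaling through TAB2 and TAB3, had 91.3, 96.3 and 87.6 CPM in PC3, 55.2, 57.2 and 66.1 in L996, and 103, 117 and 114 in RP11. Again the 3 groups were separate, with a log2 fold change in L996 of -0.63 (SE 0.10, adjusted p = 0.00121, edgeR).

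The other interferon-inducible members did not pass the test in L996. TRIM69, an antiviral member, had a log2 fold change of -0.27 (95% interval -0.48 to -0.06, adjusted p = 0.0657, edgeR), and TRIM21 had -0.22 (-0.43 to 0.00, adjusted p = 0.146, edgeR). TRIM25 at -0.09 (-0.27 to 0.10), TRIM56, a ligase of the DNA-sensing pathway, at -0.03 (-0.27 to 0.20), TRIM14 at 0.09 (-0.09 to 0.27) and TRIM26, a regulator of IRF3, at 0.09 (-0.17 to 0.35) had intervals that included 0. In all, 3 of 9 tested interferon-inducible members fell, against 11.6% of all genes, and their median log2 fold change was -0.22 against 0.01 for all genes and 0.06 for the other members without TRIM31. That median was -0.13 without L996 replicate 2 and -0.41 over the narrower list of 7. Their groups did not overlap for 6 of 9, 5 with L996 lower and TRIM14 with L996 higher, against 40.4% of all genes tested.

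Outside that list, TRIM8, a positive regulator of cytokine signaling, had 125, 123 and 119.8 CPM in PC3, 87.4, 71.5 and 71.1 in L996, and 128, 128 and 125 in RP11. Its L996 libraries lay below all others, with a log2 fold change of -0.68 (SE 0.10, adjusted p = 8.11e-04, edgeR), and 14.1% of its exon bases are shared with AL391121.1. TRIM16, a RING-less member that acts in the autophagy of damaged lysosomes, had 71.6, 69.5 and 66.8 CPM in PC3, 108, 90.8 and 86.0 in L996, and 95.8, 101 and 91.9 in RP11. It was higher in both plasmid groups, by 0.45 on the log2 scale in L996 (SE 0.11, adjusted p = 0.0100, edgeR). TRIM16 shares 28.7% of its exon bases with other genes, and its L996 call was lost without PC3 replicate 2 (adjusted p = 0.0558, edgeR) or PC3 replicate 3 (adjusted p = 0.0591, edgeR). Its near copy TRIM16L, which the symbol rule leaves out, had 204 CPM in PC3, 223 in L996 and 221 in RP11. Whether reads were misassigned between them was not tested.

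The remaining calls in L996 were each lost without at least 1 library. TRIM36, which binds microtubules, had a log2 fold change of -1.05 (adjusted p = 0.0138, edgeR) at a control level of 3.04 ± 0.442 CPM, lost without PC3 replicate 1 (adjusted p = 0.0583, edgeR) or 2 (adjusted p = 0.0616, edgeR). TRIM59, a membrane-anchored member that shares 34.3% of its exon bases with SMC4 and a further gene, had 0.53 (adjusted p = 0.0231, edgeR). All its L996 libraries lay above all PC3 libraries, and leaving out any library kept its log2 fold change between 0.46 and 0.65. Without L996 replicate 2 or 3 or any single PC3 library its adjusted p was 0.0567 to 0.108 (edgeR). TRIM73 and TRIM74, near-identical copies between which reads can be misassigned, had -1.38 (adjusted p = 0.0202, edgeR) and -1.85 (adjusted p = 0.0256, edgeR), and both reached the filter only through the PC3 libraries. Their calls were lost without L996 replicate 2, PC3 replicate 2 or PC3 replicate 3, and that of TRIM73 also without L996 replicate 3, with adjusted p of 0.0501 to 0.118 (edgeR). Leaving out L996 library 1 raised the number of members called from 10 to 17 and that of interferon-inducible members from 3 to 5, and leaving out PC3 replicate 2 lowered the first to 6. The share of all genes called moved with these counts, from 22.3% to 33.2% and to 11.6%.

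**Figure D2:**
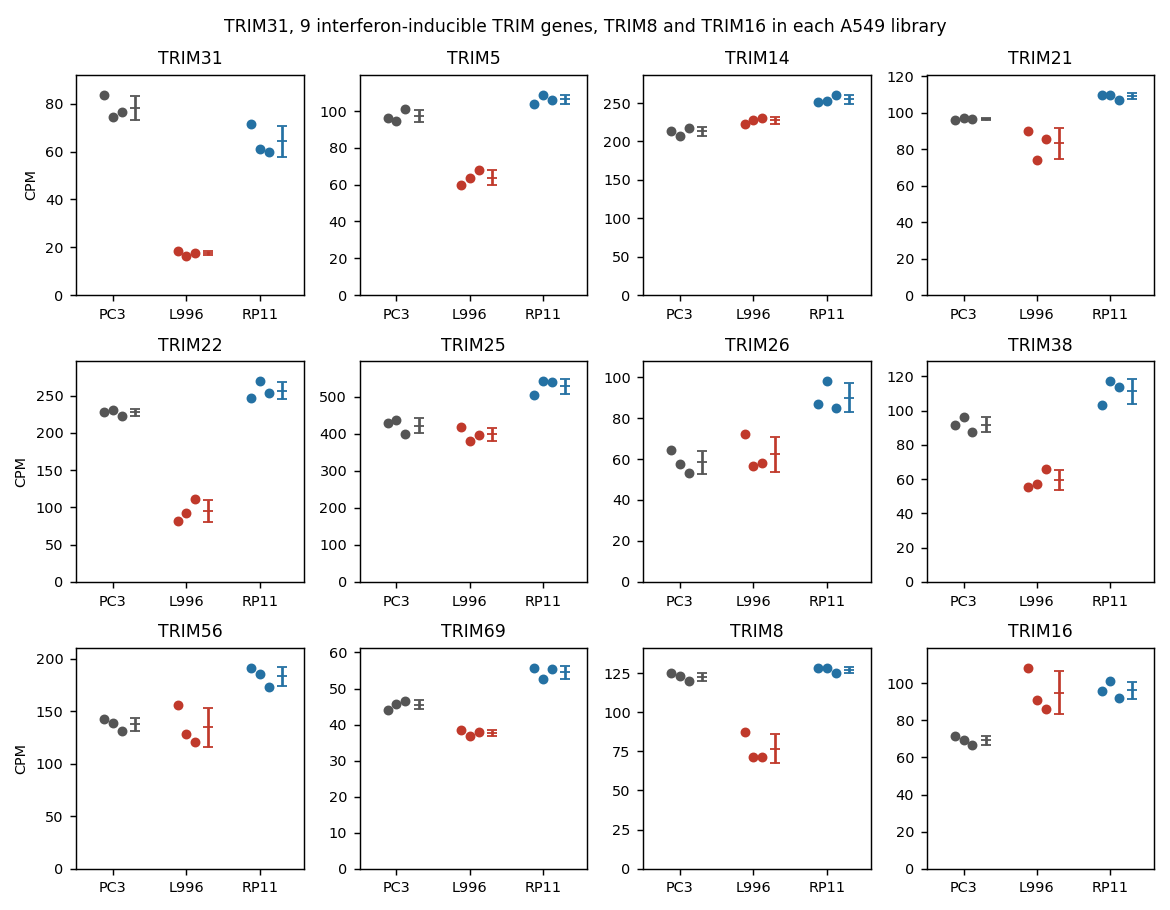
CPM of TRIM31, the 9 tested interferon-inducible members, TRIM8 and TRIM16 in each of the 9 A549 libraries (points), with the mean and SD of each group beside them (n = 3, axes from 0). TRIM31, TRIM22, TRIM5, TRIM38 and TRIM8 are lowest in the L996 libraries, and the interferon-inducible members are highest in the RP11 libraries.

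Overexpression of AP001189.3 was compared with the same 3 control libraries, so the values of these comparisons are not independent of each other. Here 13 of 47 members tested passed, 10 higher and 3 lower, or 27.7% against 19.8% of 16023 genes, of which 11.4% were higher and 8.49% lower. Of the 9 interferon-inducible members tested, 8 rose. Their median log2 fold change was 0.26, while that of all genes was -0.00 and that of the other members without TRIM31 was 0.01. The changes were small, between 0.13 and 0.62 on the log2 scale, but the RP11 libraries lay above the PC3 libraries without overlap for 9 of 9, against 35.2% of all genes with groups apart in either direction.

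TRIM26 (chromosome 6, 30184455 to 30213427, minus strand) had 64.4, 57.8 and 53.1 CPM in PC3, 72.1, 56.8 and 57.9 in L996, and 87.0, 97.9 and 84.7 in RP11. The RP11 libraries lay above the rest, while PC3 and L996 overlapped. The log2 fold change in RP11 was 0.62 (SE 0.07, adjusted p = 9.23e-07, edgeR). TRIM56 had 143, 139 and 131 CPM in PC3, 156, 128 and 120.5 in L996, and 191, 186 and 173 in RP11, and again RP11 alone stood apart. Its log2 fold change in RP11 was 0.41 (SE 0.06, adjusted p = 5.06e-06, edgeR). TRIM25, which has the highest CPM of the list, had 428, 438 and 399.6 CPM in PC3, 417, 380.3 and 397 in L996, and 504, 541 and 539 in RP11. It rose by 0.32 (SE 0.05, adjusted p = 4.45e-05, edgeR), with all RP11 libraries above all others. These 3 members kept their call under every alternative other than the limit of 1 on the absolute log2 fold change, which none of them reached.

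TRIM14 had 214, 207 and 218 CPM in PC3, 223, 228 and 231 in L996, and 251, 252 and 261 in RP11, the 3 groups being separate, and rose by 0.26 in RP11 (adjusted p = 4.77e-04, edgeR). TRIM69 had 44.1, 45.8 and 46.6 CPM in PC3, 38.4, 36.9 and 37.8 in L996, and 55.6, 52.5 and 55.4 in RP11, and rose by 0.26 (adjusted p = 0.00653, edgeR). For TRIM69, as for TRIM38, L996 lay lowest and RP11 highest in every library. TRIM38 rose by 0.28 in RP11 (adjusted p = 0.00157, edgeR) and TRIM22 by 0.17 (adjusted p = 0.0160, edgeR). The TRIM22 call was lost without PC3 replicate 2 (adjusted p = 0.0537, edgeR) or RP11 replicate 2 (adjusted p = 0.149, edgeR). TRIM21 had 95.8, 97.1 and 96.6 CPM in PC3, 90.1, 73.9 and 85.5 in L996, and 109.8, 109.9 and 107 in RP11. It rose by 0.17 (adjusted p = 0.0249, edgeR) and was the least firm of the list, losing its call without PC3 replicate 2 or any single RP11 library, with adjusted p of 0.0593 to 0.110 (edgeR). TRIM5 had a log2 fold change of 0.13 (95% interval 0.02 to 0.25, adjusted p = 0.104, edgeR).

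TRIM31 fell by 0.28 on the log2 scale in RP11 (SE 0.07, adjusted p = 0.00498, edgeR), against the direction of the members listed as interferon-inducible. The broader list used as an alternative counts TRIM31 itself as interferon-inducible. The adjusted p of TRIM31 rose above 0.05 without RP11 replicate 2 (0.0514, edgeR) or RP11 replicate 3 (0.0515, edgeR). Among the other members TRIM16 rose by 0.47 (SE 0.06, adjusted p = 2.97e-06, edgeR). TRIM41, a ligase for protein kinase C, had 27.0, 28.9 and 26.1 CPM in PC3, 34.0, 38.0 and 34.7 in RP11, and 63.6, 36.0 and 28.7 in L996. It rose by 0.38 in RP11 (adjusted p = 0.00162, edgeR), whereas among the L996 libraries the first was far above the rest and the test gave 0.65 (adjusted p = 0.0706, edgeR). With 1 library left out the L996 value lay between 0.24 and 0.87, and it passed in 4 of 14 alternative fits, among them DESeq2 and the fit without L996 replicate 3. TRIM24, a chromatin reader, and TRIM37, a ligase of peroxisomes and centrosomes, fell by 0.26 (adjusted p = 0.0114, edgeR) and by 0.25 (adjusted p = 0.0130, edgeR). Without RP11 replicate 2 or PC3 replicate 2, TRIM24 gave adjusted p of 0.0592 and 0.0619 (edgeR), and without RP11 replicate 3 TRIM37 gave 0.133 (edgeR). In L996 against PC3, TRIM37 gave -0.32 (95% interval -0.56 to -0.08, adjusted p = 0.0529, edgeR) with every L996 library below every PC3 library, and it passed as lower in 6 of 14 alternative fits, among them DESeq2, the fit of all 9 libraries and the replicate block.

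When all 9 libraries shared 1 estimate of the spread, which then included that of L996, only 4 members and 3 interferon-inducible members passed in RP11 against PC3, and 2.64% of all genes did. TRIM16, TRIM25, TRIM26 and TRIM56 were those that passed, and TRIM31 had an adjusted p of 0.114 (edgeR) in that fit.

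**Figure D3:**
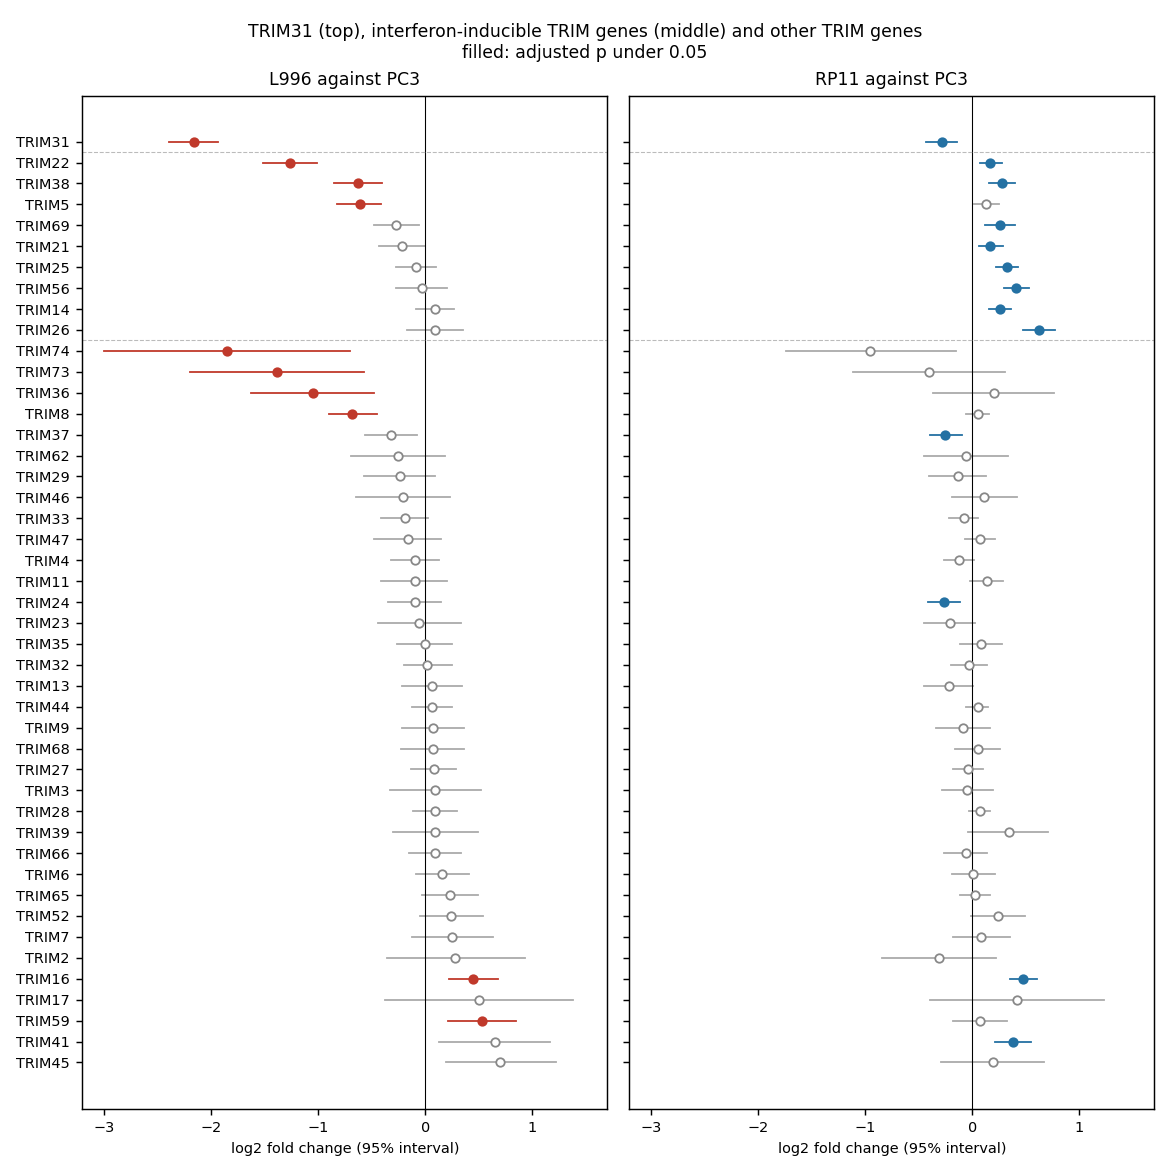
Log2 fold change with its 95% interval (x axis) of the 45 members tested in all comparisons, for L996 against PC3 (left) and RP11 against PC3 (right), which share the control libraries. Filled points passed an adjusted p of 0.05. TRIM31 is at -2.16 and -0.28, and the 9 interferon-inducible members have a median of -0.22 on the left and 0.26 on the right.

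The direct comparison of L996 with RP11 uses no control library. Of 46 members tested, 13 passed, 12 lower in L996 and 1 higher. That is 28.3% against 21.4% of 16095 genes, of which 12.1% were lower and 9.38% higher. The 12 include TRIM15, which entered the test only through RP11. Among the interferon-inducible members 8 of 9 were lower in L996, and the groups did not overlap for 9 of 9, against 39.3% of all genes in either direction. Their median log2 fold change was -0.53, with 0.02 for all genes and 0.02 for the other members without TRIM31.

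TRIM31 was lower in L996 than in RP11 by 3.68-fold (log2 fold change -1.88, SE 0.11, adjusted p = 1.22e-06, edgeR) and TRIM22 by 2.71-fold (-1.44, SE 0.12, adjusted p = 8.17e-06, edgeR). TRIM38 at -0.91, TRIM5 at -0.75, TRIM8 at -0.73 and TRIM69 at -0.54 followed, with adjusted p of 9.62e-05 to 0.00184 (edgeR). TRIM26 had -0.53, TRIM56 -0.45, TRIM25 -0.41 and TRIM21 -0.39, with adjusted p of 0.00347 to 0.0128 (edgeR), and TRIM14 had -0.17 (95% interval -0.34 to -0.00, adjusted p = 0.145, edgeR). For TRIM26, TRIM56, TRIM25, TRIM21 and TRIM69 the direct difference and the rise in RP11 passed, while the L996 difference from PC3 did not. For TRIM21 and TRIM69 that last result depended on the fit, since without L996 library 1 both were lower in L996 than in PC3 (adjusted p = 0.00406 and 0.00955, edgeR). With all libraries kept, TRIM21 also passed with an offset for GC content or gene length, and TRIM69 with the GC offset or in the fit of all 9 libraries. Without L996 replicate 2, or without any single RP11 library, TRIM21 gave adjusted p of 0.0591 to 0.0831 (edgeR). TRIM56 gave 0.0561 to 0.0672 (edgeR) without L996 replicate 2, RP11 replicate 1 or RP11 replicate 2.

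Outside the list, TRIM36 was lower in L996 than in RP11 by 1.25 on the log2 scale (adjusted p = 0.0241, edgeR) and TRIM59 was higher by 0.45 (adjusted p = 0.0464, edgeR). TRIM36 gave 0.0765 to 0.147 (edgeR) without L996 replicate 2, RP11 replicate 1 or RP11 replicate 2, and TRIM59 gave 0.104 to 0.174 (edgeR) without any single library other than L996 replicate 1. TRIM15, a focal adhesion protein encoded near TRIM31 and TRIM26 on chromosome 6, had 1.65, 1.12 and 0.403 CPM in PC3, 0.219, 0.127 and 0.162 in L996, and 0.709, 1.04 and 0.606 in RP11. It was lowest in the L996 libraries, with a log2 fold change of -2.15 (adjusted p = 0.0106, edgeR), and it entered the test only through RP11. The call was lost without L996 replicate 2 (adjusted p = 0.0526, edgeR) or RP11 replicate 2 (adjusted p = 0.0656, edgeR). The number of members called was 22 without L996 library 1, 8 without L996 replicate 2 and 8 without RP11 replicate 2, and 41.6%, 12.8% and 11.8% of all genes were called in these fits.

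Over all comparisons 20 members passed at least once, including all 9 of the tested interferon-inducible members, and 27 tested members never did. These 20 are 42.6% of the 47 tested, and 38.4% of 16471 genes passed at least once. TRIM31 was the only member lower in all 3. TRIM22 and TRIM38 were lower in L996, higher in RP11 and lower in the direct comparison, and TRIM5, TRIM8 and TRIM36 were lower in L996 than in either other group.

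The family can also be read by the structure of its C-terminal part. The TIF1 group of chromatin regulators gave log2 fold changes in L996 of -0.10 (95% interval -0.35 to 0.15) for TRIM24, 0.09 (-0.11 to 0.30) for TRIM28 and -0.19 (-0.41 to 0.03) for TRIM33. The NHL group, whose members bind RNA or cargo through a propeller domain, gave 0.28 (-0.36 to 0.93) for TRIM2, 0.09 (-0.33 to 0.52) for TRIM3 and 0.02 (-0.20 to 0.25) for TRIM32. In RP11 those of the NHL group were -0.31 (-0.84 to 0.22), -0.05 (-0.28 to 0.19) and -0.03 (-0.20 to 0.14). TRIM9 and TRIM46, which share a microtubule-binding COS box with TRIM36, had 0.07 (-0.22 to 0.36) and -0.21 (-0.65 to 0.23) in L996. TRIM45, a member with a filamin repeat, had 0.70 (0.19 to 1.22) in L996, with an adjusted p of 0.0511 (edgeR). It passed in 8 of 14 alternative fits, DESeq2 and the fit of all 9 libraries among them, with log2 fold changes of 0.55 to 1.00 over all 14.

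Genes with which these ligases work are given by list. Of 27 interferon-stimulated genes taken as a scale, 20 fell in L996 (median -0.65), against 11.6% of all genes, and 14 rose in RP11 (median 0.18), against 11.4%. OASL, XAF1, IFIT2 and IFIT3 had the smallest adjusted p in L996, with log2 fold changes of -1.54, -1.47, -1.67 and -1.30, and 0.18, -0.12, 0.83 and 0.17 in RP11, where XAF1 did not pass. Among 20 tested partners of TRIM ligases in antiviral and NF-kappa B signaling, 10 fell in L996, against 11.6% of all genes. IFIH1 is on this list and on that of the interferon-stimulated genes, so it counts in both. The RNA sensors IFIH1 and DDX58 were at -1.11 and -1.23, the DNA-pathway adaptor TMEM173 at -1.61 and the kinase IKBKE at -0.98. In RP11, 4 partners rose and 2 fell, against 11.4% and 8.49% of all genes.

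Of 20 genes for E2 enzymes and for the ubiquitin-like modifier ISG15, 5 fell and 1 rose in L996, where 22.3% of all genes passed in either direction, and 6 rose and 1 fell in RP11, where 19.8% did. Those that fell in L996 were of the ISG15 pathway, which is itself interferon-inducible. HERC5, the ISG15 ligase, fell by 0.86, UBE2L6, its E2 enzyme, by 0.53, UBA7, its E1 enzyme, by 0.72, ISG15 by 0.82 and USP18, its protease, by 0.39, with adjusted p of 4.90e-04 to 0.0101 (edgeR). In RP11 these 5 genes rose, by 0.30, 0.21, 0.49, 0.20 and 0.33. Of 8 tested TRIM-family genes that carry other symbols, 3 fell in L996, against 11.6% of all genes, and the other 5 did not pass, with log2 fold changes from -0.28 for MID1 to 0.28 for TRIML2. PML, the scaffold of nuclear bodies, fell by 0.81 in L996 (adjusted p = 6.24e-05, edgeR) and rose by 0.30 in RP11 (adjusted p = 8.10e-05, edgeR). MID2, which binds microtubules, had -0.84 in L996. MEFV, the pyrin gene, was at 2.15 ± 0.610 CPM in PC3 and 0.272 ± 0.108 in L996 and entered that test only through PC3, with a fitted log2 fold change of -2.97.

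**Figure D4:**
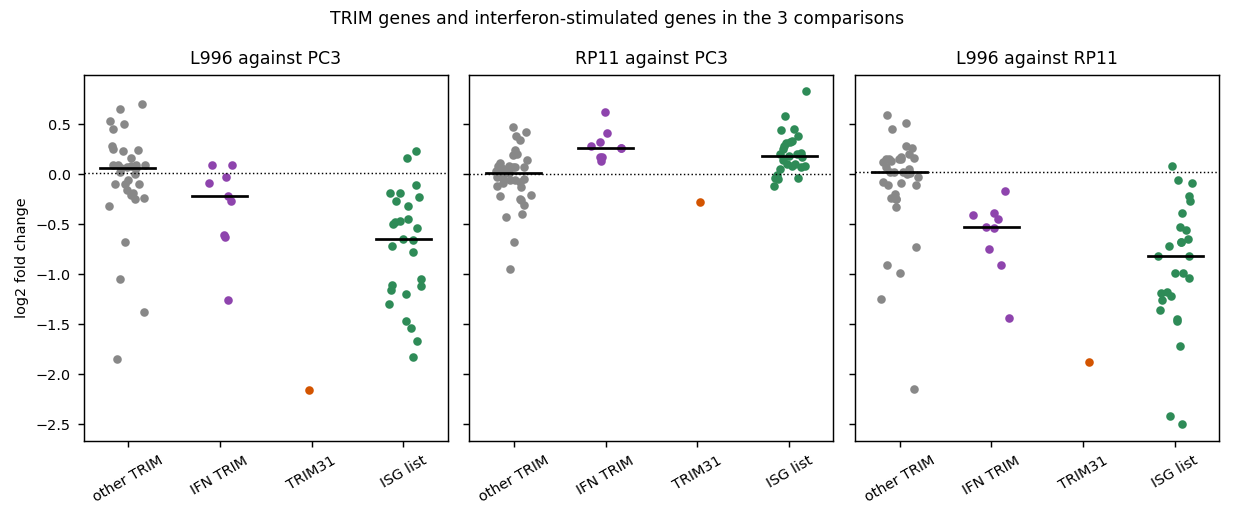
Log2 fold changes (y axis) of the other TRIM members, the interferon-inducible members (IFN TRIM), TRIM31 and 27 interferon-stimulated genes (ISG list) in the 3 comparisons; solid bars are list medians and the dotted line the median of all genes tested. The interferon-inducible members have medians of -0.22, 0.26 and -0.53, and the interferon-stimulated genes -0.65, 0.18 and -0.82.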

How the data were processed

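The authors mapped the reads to GRCh38 with HISAT2 (2.0.5) and counted them per gene with featureCounts (1.5.0-p3), per the labels and methods. The deposited matrix gives raw counts per gene, and the deposited FPKM values, which the authors derived from the counts and gene length, served only to compare levels between genes. Groups came from the labels. For each pair of groups, edgeR (4.0.16, R 4.3.3) was fitted over the 6 libraries with filterByExpr, TMM scaling and the robust quasi-likelihood test, with Benjamini-Hochberg adjustment over all genes tested and a threshold of 0.05. CPM used TMM over all 9 libraries. Scripts were tested on simulated data. The counting is not stated to use strand, so overlapping and antisense genes cannot be separated. Gene coordinates equal GENCODE 29 for 58724 genes, and promoters came from RefSeq.

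The libraries were treated as unpaired, and the check of replicate numbers given below cannot decide whether these pair them. The members, lists, alternatives and motifs were chosen with earlier results of these data known. Named genes were TRIM31, the interferon-inducible list, up to 8 further called members per comparison by adjusted p, members of structural groups, and up to 4 examples per list of partner genes; USP18 and TRIML2 were named after their values were seen. Alternatives were DESeq2 (1.42.0), library-size scaling, 2 other filters, 1 fit of all 9 libraries, a replicate block, offsets for gene length and, added after seeing the data, GC content, each library left out, a fold threshold, and a narrower and a broader interferon-inducible list.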

Additional observations from a re-analysis of the deposited data

Results flagged for a closer look

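TRIM22 and TRIM38 were lower in L996 and higher in RP11 than in the control, and the direct comparison of L996 with RP11, which is the test of the difference between these effects, gave log2 fold changes of -1.44 for TRIM22 and -0.91 for TRIM38. Every L996 library lay below every control library, and every RP11 library lay above it, for both genes.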

How the results depend on the processing

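No called value changed sign. Values that did not pass could do so, as for TRIM3 in L996 against PC3 (0.09, and -0.21 to 0.24 with 1 library left out). With an offset for GC content, 16 members and 5 interferon-inducible members were called in L996 against PC3 instead of 10 and 3, while the share of all genes called went from 22.3% to 37.1%. A further limit of 1 on the absolute log2 fold change left 5 members and 1 interferon-inducible member in L996 against PC3. Among these 5 are TRIM73 and TRIM74, which reached the filter only through the PC3 libraries. The limit left 4 and 1 in L996 against RP11, among them TRIM15, which entered the test only through RP11. In RP11 against PC3 it left 0 and 0, where 13 and 8 passed edgeR's test without that requirement. There 15 and 9 had an unadjusted p under 0.05, and DESeq2 called 13 and 8. In the fit of all 9 libraries, RP11 against PC3 gave 4 members and 3 interferon-inducible members, and TRIM31 there had -0.28 (adjusted p = 0.114). The narrower list of 7 gave 5 calls in RP11 against PC3 and 5 in L996 against RP11, since it holds fewer genes. The broader list of 14 adds TRIM6, TRIM31, TRIM35 and TRIM58. Its median log2 fold change was -0.15 in L996 against PC3, 0.22 in RP11 against PC3 and -0.49 in L996 against RP11. It gave 4, 9 and 9 calls in these comparisons, TRIM31 being the 1 called lower in RP11 against PC3. Leaving out each library gave 6 to 17 members and 3 to 5 interferon-inducible members in L996 against PC3, 9 to 15 and 6 to 8 in RP11 against PC3, and 8 to 22 and 6 to 9 in L996 against RP11. In the same fits 11.6% to 33.2%, 11.6% to 21.9% and 11.2% to 41.6% of all genes were called. The TRIM31 change in RP11 ranged from -0.37 to -0.23 in these fits. Apart from the sizes of lists and fits, the cause was not tested.

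With the replicate number as a block, 12, 13 and 13 members were called instead of 10, 13 and 13. Of all genes, 28.0%, 21.6% and 23.4% were called instead of 22.3%, 19.8% and 21.4%. The deviations of libraries with the same number correlated at -0.0194 to 0.148. With 3 libraries per group these values cannot decide whether the numbers pair the libraries. Library-size scaling moved the median of all genes to 0.05, -0.03 and 0.08, and no direction of a called member flipped. In RP11 against PC3, GC and length offsets ended the TRIM24 call (adjusted p = 0.122 and 0.0588), the GC offset that of TRIM37 (0.127), and length offset, library-size scaling and no filter that of TRIM21 (0.204, 0.0549 and 0.0577). Depth limits the members near the floor, where 6 above 3 counts were never tested.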
